A study of Homo sapiens with 2 samples.

Results

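LDB1 peaks were examined at 9 genes that encode the repressors GFI1 and GFI1B and the corepressor they recruit. The genes were GFI1, GFI1B, KDM1A, RCOR1, RCOR2, RCOR3, HDAC1, HDAC2 and HMG20B. A peak was included when it overlapped, by at least 1 base, the body of a listed gene in GENCODE release 44 or the 50 kb on either side of it. This gave 18 of the 11046 deposited peaks. They came from CUT&Tag, in which an antibody tethers a transposase that cuts and tags nearby DNA, here applied to NB4 cells, an established line from a patient with acute promyelocytic leukemia. The series had 2 libraries. The library made with the LDB1 antibody is labelled as NB4 cells with LDB1 overexpression, and the library made with IgG as untreated NB4 cells, so antibody and treatment cannot be told apart. The methods of the study describe the assay without mention of overexpression. The peak list belongs to the LDB1 library and gives positions and lengths only. With 1 library per antibody there were no replicates, no test was made, the depth behind each peak is unknown, and the intervals given below are 95% Wilson intervals that cover counting error alone.

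GFI1 and GFI1B are zinc finger proteins that bind DNA and repress transcription. GFI1 is known for its part in neutrophil and lymphoid development, and GFI1B for its part in red cells and megakaryocytes. Both carry a SNAG domain at the amino terminus that binds KDM1A, the histone demethylase also called LSD1. KDM1A works with a CoREST scaffold (encoded by RCOR1, RCOR2 or RCOR3), with the histone deacetylases HDAC1 and HDAC2, and with HMG20B, an HMG box subunit. LDB1 does not bind DNA by itself. It forms a complex with LMO2 and with DNA-binding proteins such as GATA factors and TAL1. This complex is known to sit on a composite element made of part of an E-box and a GATA site.

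To show the DNA under these peaks, the 200 bp around the peak midpoint are printed for the peak nearest to the start of GFI1 and of GFI1B, for the peak with a composite at KDM1A, and for the single peaks of HMG20B and HDAC2, whose 200 bp held a GATA motif. Capitals mark the GATA motif (AGATAA or AGATAG or TGATAA or TGATAG, on either strand) and the composite (CTG, then 7 or 8 bases of any kind, then a GATA motif). The sequences are those of hg38, and a motif on the minus strand is seen on the plus strand as its reverse complement, such as TTATCT for AGATAA.
GFI1, downstream peak (chr1:92446773-92446972, plus strand): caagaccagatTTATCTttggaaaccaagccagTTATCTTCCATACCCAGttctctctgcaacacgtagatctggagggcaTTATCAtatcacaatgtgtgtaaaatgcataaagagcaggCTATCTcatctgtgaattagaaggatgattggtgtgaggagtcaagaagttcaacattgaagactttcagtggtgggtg
KDM1A, upstream peak (chr1:22997664-22997863, plus strand): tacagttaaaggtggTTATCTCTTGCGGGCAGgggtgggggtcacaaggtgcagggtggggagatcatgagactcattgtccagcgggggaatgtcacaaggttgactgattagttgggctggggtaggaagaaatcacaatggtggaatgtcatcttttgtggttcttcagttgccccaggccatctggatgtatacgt
GFI1B, intron 1 peak (chr9:132984587-132984786, plus strand): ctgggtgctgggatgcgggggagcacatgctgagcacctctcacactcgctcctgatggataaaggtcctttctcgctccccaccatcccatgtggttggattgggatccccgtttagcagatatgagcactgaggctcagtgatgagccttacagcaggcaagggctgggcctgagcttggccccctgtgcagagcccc
HMG20B, upstream peak (chr19:3560613-3560812, plus strand): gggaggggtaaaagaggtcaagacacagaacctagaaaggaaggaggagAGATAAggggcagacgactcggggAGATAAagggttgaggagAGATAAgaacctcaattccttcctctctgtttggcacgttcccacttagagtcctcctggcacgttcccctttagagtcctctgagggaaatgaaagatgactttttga
HDAC2, downstream peak (chr6:113920886-113921085, plus strand): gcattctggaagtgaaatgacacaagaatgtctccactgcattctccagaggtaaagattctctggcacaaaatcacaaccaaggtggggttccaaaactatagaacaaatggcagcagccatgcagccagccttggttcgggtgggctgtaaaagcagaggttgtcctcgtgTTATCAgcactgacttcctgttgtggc
The GFI1 window held 4 GATA motifs, one of them within a composite, and the KDM1A window held 1 composite. In the HMG20B window there were 3 GATA motifs, and the HDAC2 window held 1. No GATA motif lay in the GFI1B window, nor in the central 200 bp of the longest RCOR1 peak, which is therefore not printed.

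The composites of GFI1B, which lay further from the midpoint, are printed with 30 bases on each side and the composite in capitals. They were chosen after their positions were seen. All are from the longest GFI1B peak.
GFI1B, the first composite (chr9:133003064-133003139, minus strand): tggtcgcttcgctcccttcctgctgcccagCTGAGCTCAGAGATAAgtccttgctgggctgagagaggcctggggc
GFI1B, the second composite (chr9:133004217-133004293, minus strand): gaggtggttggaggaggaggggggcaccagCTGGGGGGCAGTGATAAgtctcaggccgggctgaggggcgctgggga
GFI1B, the third composite (chr9:133005128-133005203, plus strand): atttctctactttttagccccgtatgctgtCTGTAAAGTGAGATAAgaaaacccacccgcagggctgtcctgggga
In the first and second GFI1B composites the CTG was the end of a whole CAGCTG E-box, with which it shared 3 bases. In the third no such E-box overlapped the composite.

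To ask how LDB1 peaks were spread over the repressor genes and their corepressor, peaks were counted per gene. Results showed that 7 of the 9 genes (77.8%, 45.3 to 93.7%) had at least 1 peak, where 8973 of all 20033 protein-coding genes (44.8%) had one in a window built in the same way. GFI1B had 6 peaks, RCOR1 had 5 and RCOR3 had 3. GFI1, KDM1A, HDAC2 and HMG20B had 1 each, and RCOR2 and HDAC1 had none. The median was 1 peak per listed gene and 0 over all protein-coding genes. Windows of long genes hold more sequence, and the windows of the listed genes ran from 106 kb at RCOR2 to 238 kb at RCOR1, around a median of 148 kb compared with 127 kb over all protein-coding genes. In windows of equal length, 50 kb on each side of the canonical transcription start site (TSS), 7 of the 9 genes again had a peak, compared with 36.6% of all protein-coding genes. HDAC2 was counted there only by the edge of its peak, whose midpoint lay 50.2 kb from the canonical TSS.

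**Figure D1:**
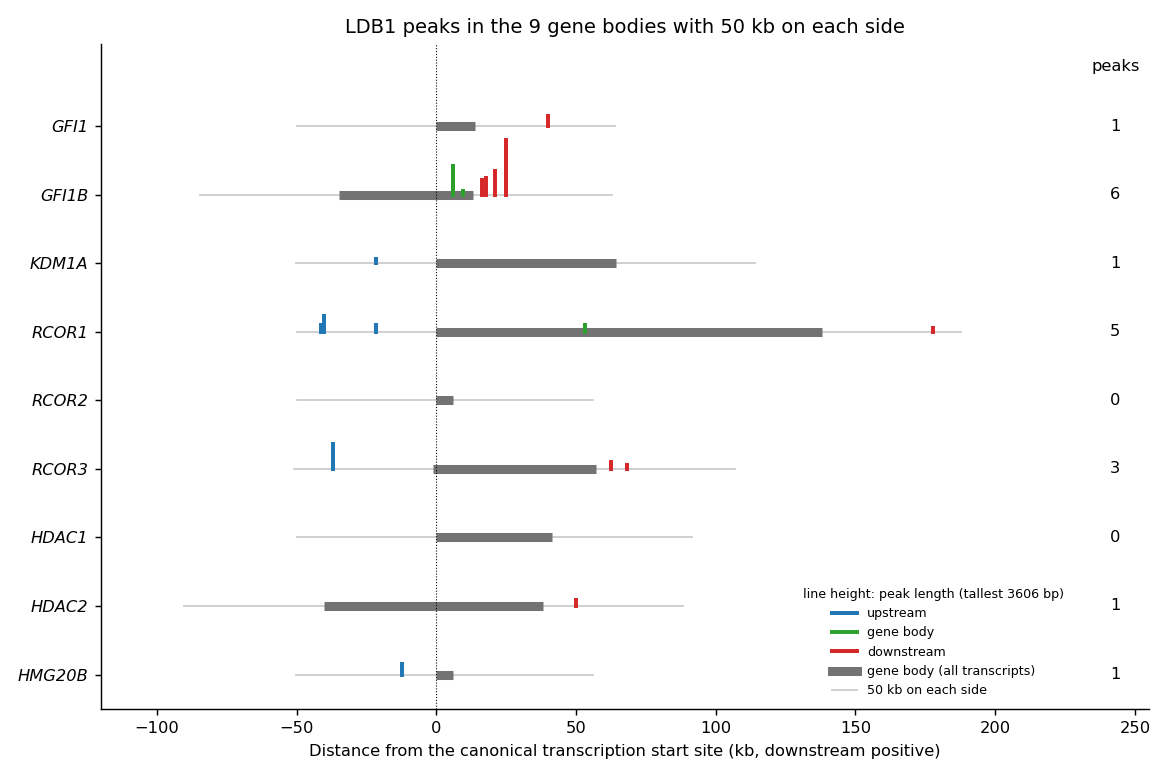
Map of the 9 genes, each aligned at its canonical TSS, with distance in kb on the horizontal axis (downstream positive). Thick grey bars are gene bodies, thin lines the 50 kb on each side, and coloured lines the peaks, whose height is proportional to peak length (tallest 3606 bp). The 6 peaks of GFI1B stand close together within and just beyond the gene, while the peaks of the other genes are scattered.

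**Figure D2:**
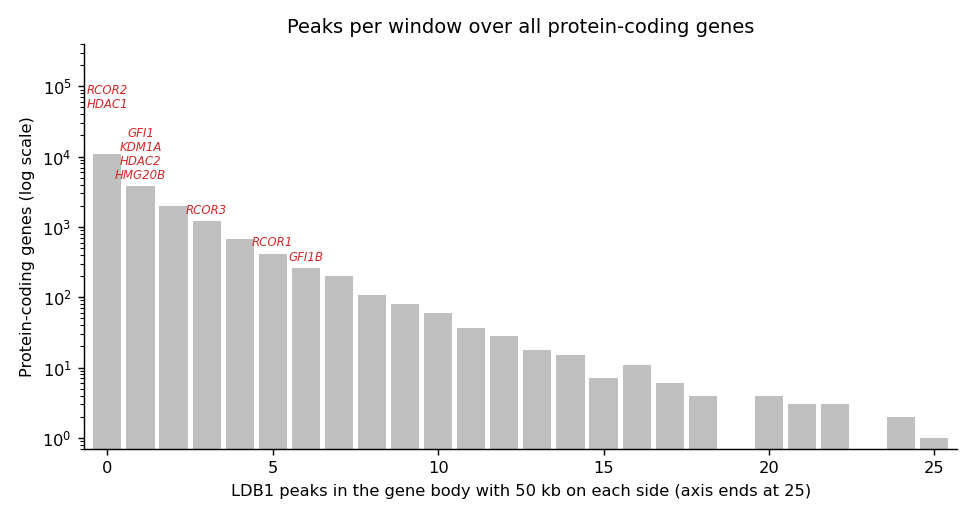
Number of LDB1 peaks per window (horizontal axis, ended at 25) for all 20033 protein-coding genes, with the number of genes on a log scale. The listed genes are named above their bar, from RCOR2 and HDAC1 at 0 peaks to GFI1B at 6.

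GFI1B (ENSG00000165702.15, chromosome 9, 132944000 to 132991687, plus strand, canonical TSS at 132978694) held the most peaks and the longest. Its 6 peaks measured 1868, 253, 988, 1111, 1580 and 3606 bp in the order in which they follow the TSS. Their midpoints lay 6.0, 9.6, 16.2, 17.8, 20.9 and 24.9 kb downstream of it. All 6 were on the downstream side of the canonical TSS, and no peak was upstream. A window with at least 6 peaks was found for 850 protein-coding genes (4.24%). Together the GFI1B peaks covered 9406 bp, or 57.6% of the 16332 bp of peak at the 9 genes. Counting GFI1B itself, 73 protein-coding genes (0.364%) had at least as many peak bases in their window, and 51 (0.255%) did so in the windows of equal length around the TSS. Extending the window to 100 kb on each side left the count at 6.

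The GFI1B peaks fell into a part inside the gene and a part beyond its end. The first peak, 132983753 to 132985620, was in intron 1 of the canonical transcript, with its midpoint 1993 bp from the start of another GFI1B transcript. The second, 132988208 to 132988460, was the shortest of the 6 and had its midpoint in coding exon 4. The remaining 4 were intergenic and began 2737 bp beyond the end of the gene. They spanned 11011 bp, from 132994424 to 133005434, of which 7285 bp (66.2%) were peak. The last of them, 133001829 to 133005434, was the farthest from the TSS and ranked 13 of 11046 by length. Each central sequence of 31 bases of the 6 peaks occurs once in hg38.

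Elements downstream of GFI1B are known from work on blood progenitors as enhancers of the gene. The peak list by itself does not tie a peak to a gene. For all 6 peaks GFI1B had the closest protein-coding TSS, at 1655 to 16952 bp. The windows of 2 neighbours also took in these peaks. That of GTF3C5, a subunit gene of a transcription factor of RNA polymerase III, held all 6, and that of TSC1, a gene of growth control, held 4. Their canonical TSS lay 52.3 and 34.1 kb from that of GFI1B.

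**Figure D3:**
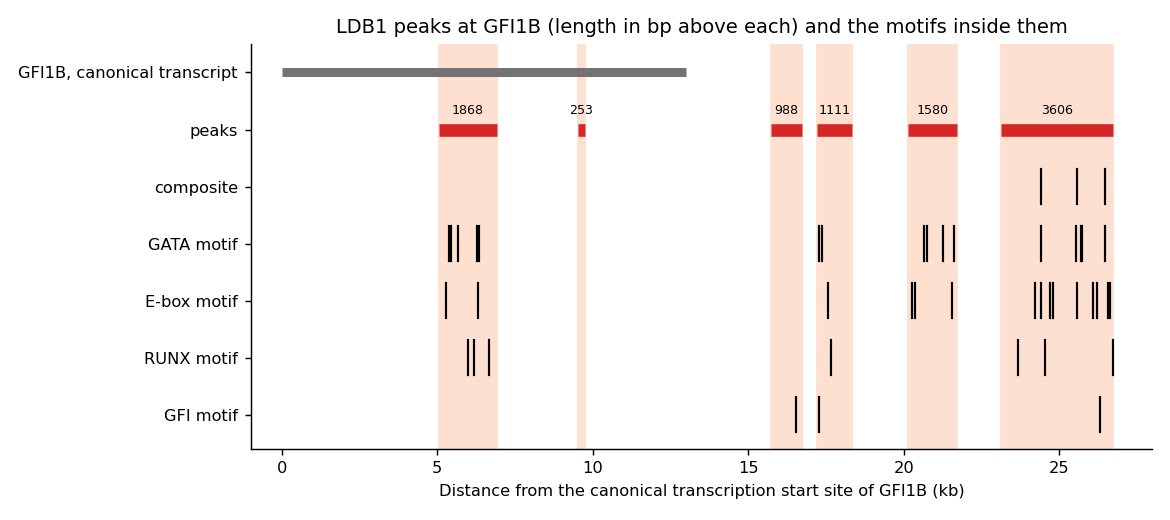
Peaks at GFI1B against the distance in kb from its canonical TSS, with the length of each peak in bp above it. The rows below show the motifs found inside the peaks as vertical lines. The 3 composites are all in the last and longest peak, and the GFI motifs are in 3 of the 4 peaks beyond the gene.

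GFI1 (ENSG00000162676.13, chromosome 1, 92473043 to 92486925, minus strand) differed from its paralog in having a single peak. It lay at 92446551 to 92447193 (643 bp), 25850 bp beyond the end of the gene and 40.1 kb downstream of the canonical TSS, in intergenic sequence. Another GFI1 transcript had the closest protein-coding TSS, at 33613 bp. The window of EVI5, the neighbour on the other side of GFI1, did not include this peak. At 100 kb on each side the GFI1 count was 2.

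Among the corepressor genes, KDM1A (ENSG00000004487.18, chromosome 1, 23019443 to 23083689, plus strand), the demethylase, had 1 peak of 263 bp at 22997632 to 22997894. It was 21.7 kb upstream of the canonical TSS and 21549 bp from the gene, and TEX46 had the nearest protein-coding TSS at 16331 bp. The peak ranked 9699 of 11046 by length.

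The 3 CoREST genes had different numbers of peaks. RCOR1 (ENSG00000089902.10, chromosome 14, 102592649 to 102730561, plus strand) had 5. Upstream of the gene were 102551126 to 102551555 (430 bp) and 102551991 to 102553060 (1070 bp), 41.3 and 40.1 kb from the TSS, both in intron 2 of the long noncoding RNA gene LINC02323. Closer to the gene, 21.4 kb upstream of the TSS, lay 102571018 to 102571438 (421 bp). The peak in the gene body, 102645700 to 102646122 (423 bp), was in intron 2 of 11. The fifth, 102770148 to 102770397 (250 bp), was 39587 bp beyond the gene in an exon of a noncoding RNA gene, and the TSS of TRAF3 was 7177 bp away. For the other 4 RCOR1 peaks the closest protein-coding TSS belonged to RCOR1, at 21421 to 53262 bp. The central sequence of the 1070 bp peak occurs 19 times in hg38.

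RCOR3 (ENSG00000117625.14, chromosome 1, 211258377 to 211316385, plus strand) had 3 peaks, all outside the gene body. The longest measured 1622 bp, ranked 302 of 11046 and lay 37.0 kb upstream of the TSS in intergenic sequence. Peaks of 483 bp (211321667 to 211322149) and 261 bp (211327481 to 211327741) followed 5282 and 11096 bp beyond the gene. Both were nearest to TRAF5, a signalling adapter gene, at 4707 and 778 bp, and the 261 bp peak was in its intron 1. The 483 bp peak had a central sequence found 16 times in hg38. For none of the 3 was RCOR3 the nearest protein-coding gene by TSS. RCOR2 (chromosome 11, 63911230 to 63917164, minus strand) had no peak, and the nearest was 90360 bp away.

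Of the deacetylase genes, HDAC1 (chromosome 1, 32292083 to 32333635, plus strand) had no peak within 50 kb and the nearest was 55713 bp from the gene. HDAC2 (chromosome 6, 113933028 to 114011308, minus strand) had 1 peak of 362 bp, 113920805 to 113921166, which lay 11862 bp beyond the gene in exon 4 of the noncoding RNA gene LINC02880. An HDAC2 transcript had the closest protein-coding TSS, at 28338 bp. HMG20B (chromosome 19, 3572777 to 3579088, plus strand) had 1 peak of 698 bp, 3560364 to 3561061, at 12.2 kb upstream of its canonical TSS. That peak lay in an intron of MFSD12, whose TSS was nearest at 3126 bp. The same peak fell in the windows of 6 neighbouring protein-coding genes.

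Next, the peaks were compared with promoters. None of the 9 canonical TSS lay in a peak, and none had a peak midpoint within 3 kb, where 1241 of 20033 protein-coding genes (6.19%) had one. The nearest midpoint was 5992 bp away at GFI1B and 90926 bp away at RCOR2. Of the 18 peaks, 6 (33.3%) were within 3 kb of some annotated TSS, compared with 35.6% of all peaks. These included the first and second GFI1B peaks, both near the start of the same GFI1B transcript, which was not the canonical one. The others were a pair of RCOR1 peaks and the HMG20B peak near noncoding RNA genes, and the RCOR3 peak at TRAF5. A repeated central sequence was found in 2 of the 18 peaks, compared with 10.7% of all peaks.

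Peak length differed between the loci. Over the 18 peaks it ranged from 250 to 3606 bp with a median of 563 bp, compared with a range of 229 to 4856 bp and a median of 451 bp over all peaks. The median was 1346 bp for the 6 GFI1B peaks and 426.5 bp for the other 12. Of the 18 peaks, 6 were at least 1023 bp long, the 90th percentile of all peaks. Of these 6, 4 were at GFI1B, and the others were the 1070 bp peak of RCOR1 and the 1622 bp peak of RCOR3. The single peaks of KDM1A and HDAC2 were below the median of all peaks, and those of GFI1 and HMG20B were above it.

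**Figure D4:**
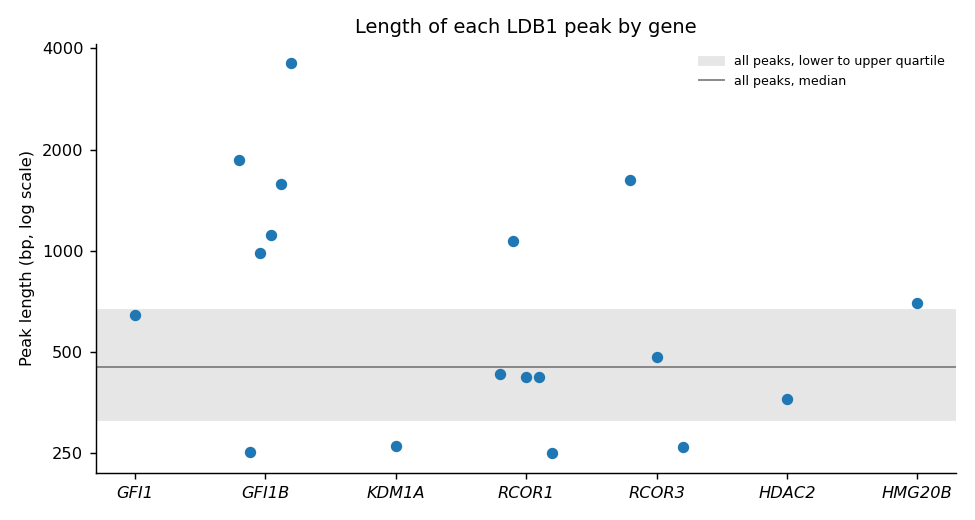
Length of each peak in bp (log scale) for the 7 genes with a peak, 1 point per peak in order along the chromosome. The grey band spans the lower to upper quartile of all 11046 peaks (314 to 666 bp) and the line their median (451 bp). Of the 6 GFI1B peaks, 5 lie above the band.

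To see which DNA-binding factors have a motif under these peaks, consensus sequences were searched on both strands in the 200 bp around each midpoint. GATA motifs were found in 7 of the 18 peaks (38.9%, 20.3 to 61.4%), compared with 47.1% of all peaks. The composite was found in 2 (11.1%, 3.10 to 32.8%), those of GFI1 and KDM1A, compared with 11.2%. The E-box (CAGATG or CAGCTG) was found in 6 (33.3%, 16.3 to 56.3%), compared with 33.8%, and the RUNX motif (TGTGGT or TGCGGT) in 4 (22.2%, 9.0 to 45.2%), compared with 20.5%. The ETS motif (AGGAAGT or CGGAAGT) was found in 3 (16.7%, 5.84 to 39.2%), those being the first and second RCOR1 peaks and the HDAC2 peak, compared with 6.18%. All these intervals included the share of all peaks. The AP-1 motif (TGACTCA or TGAGTCA) and the GFI motif (AATCACAG or AATCACTG, after the known preference of GFI1 and GFI1B) were found in 0 of 18. They were found in 9.5% and 1.59% of all peaks. Beside a count of 0, the share that 3 counts would make is given as the limit in place of an interval, and here it allows a share of up to 16.7%.

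The GATA motif was also counted for GFI1B and the other loci apart, a split chosen after seeing the data. In the central 200 bp none of the 6 GFI1B peaks held a GATA motif. It was found in 7 of the other 12 peaks (58.3%, 32.0 to 80.7%). By the limit of 3 counts the GFI1B count allows a share of up to 50%, while its Wilson interval ends at 39.0%. Both limits lay within the interval of the other peaks, and the 47.1% of all peaks lay between them. Over the whole length of the peaks the shares were close, with a GATA motif in 4 of the 6 GFI1B peaks (66.7%, 30 to 90.3%) and in 9 of the other 12 (75%, 46.8 to 91.1%). The GFI1B peaks held 16 GATA motifs in all, 1.70 per kb, compared with 2.64 per kb over all peaks and 3.47 per kb at the other listed genes. Among peaks of at least 988 bp, the length of the shortest of the 5 longer GFI1B peaks, 4 of the 5 at GFI1B (80%, 37.6 to 96.4%) held a GATA motif, compared with 96.8% of all 1190 such peaks. In peaks of that length the density was 1.75 per kb at GFI1B and 2.25 per kb over all. No summit was used here, and the midpoint of a long peak can lie far from its summit. The GATA motif closest to a midpoint in these peaks was 185 bp away, in the fifth peak.

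The composites at GFI1B were all in the peak of 3606 bp, at 133003094 to 133003109, 133004247 to 133004263 and 133005158 to 133005173. Their distances from the midpoint were 529, 624 and 1535 bp. In all this peak held 5 GATA motifs, of which 3 were those of the composites, and 9 E-boxes, of which 2 overlapped a composite. It further held 3 RUNX and 3 ETS motifs, 1 AP-1 motif and 1 GFI motif. Anywhere in the peak, 4 of the 18 peaks held a composite (22.2%, 9.0 to 45.2%), compared with 22.4% of all peaks. These were the GFI1 and KDM1A peaks, the longest GFI1B peak and the longest RCOR3 peak. Of the 5 GFI1B peaks of at least 988 bp, 1 (20%, 3.62 to 62.4%) held a composite, compared with 46.6% of all peaks of that length.

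The GFI motif was examined because GFI1 and GFI1B are known to repress their own genes and each other's. Anywhere in the peak it was found in 3 of the 18 peaks (16.7%, 5.84 to 39.2%), compared with 4.47% of all peaks. All 3 were at GFI1B, and the GFI1B peaks were then taken by themselves after this was seen, so their share is a description of where the matches lay. It was 3 of 6 (50%, 18.8 to 81.2%), and 0 of the other 12 peaks had a match, which allows a share of up to 25%. The 3 matches were at 132995228 to 132995235, 132995970 to 132995977 and 133005000 to 133005007, all beyond the end of the gene. The second shared 2 bases with a GATA motif (TGATAA). Long peaks hold more of any motif. Of the 5 GFI1B peaks of at least 988 bp, 3 (60%, 23.1 to 88.2%) held a GFI motif. Of all 1190 peaks of that length, 10.9% did. In these long peaks its density was 0.328 per kb at GFI1B, from 3 matches, and 0.079 per kb over all. With AAATCA as the motif, 4 of the 6 GFI1B peaks had a match, compared with 20.7% of all peaks, and 4 of the 5 of at least 988 bp, compared with 43.9% of all peaks of that length. AAATCA was not particular to GFI1B, as 5 of the other 12 peaks (41.7%, 19.3 to 68.0%) had a match. Its density was 0.532 per kb in the GFI1B peaks, 0.722 per kb in the other 12 and 0.439 per kb over all peaks. The length limit and the use of AAATCA over whole peaks were also chosen after seeing the data. A match shows the letters and not binding.

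**Figure D5:**
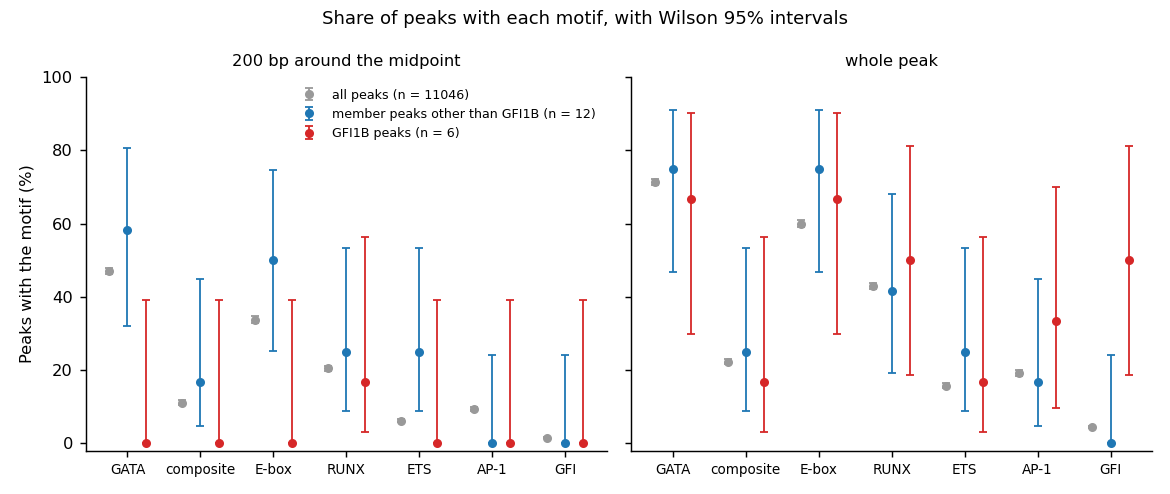
Share of peaks (%) with each motif in the 200 bp around the midpoint (left) and anywhere in the peak (right), for all 11046 peaks, the 12 peaks at genes other than GFI1B and the 6 GFI1B peaks. Points are shares and bars 95% Wilson intervals. For GATA the GFI1B share is 0% on the left and 66.7% on the right.

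Other genes of the pathway were counted in the same way, from lists chosen with earlier results of these data known. Of 10 further genes of the CoREST and LSD1 complexes, 6 (60%, 31.3 to 83.2%) had a peak in their body or the 50 kb on either side, with a median of 1.5 peaks. GSE1 had 50 peaks in a window of 607 kb, RREB1 had 10 and PHF21A had 5. ZMYM2, ZMYM3 and REST were among those with none. Of 8 further SNAG domain factors, 4 (50%, 21.5 to 78.5%) had a peak, led by SCRT2 with 7 and SCRT1 with 3, while SNAI1, SNAI2, INSM1 and INSM2 had none. The median of this list was 0.5 peaks. Of 12 further genes of deacetylase complexes and LSD1 relatives, 9 (75%, 46.8 to 91.1%) had a peak, with a median of 1.5. CHD4, the remodeller of the NuRD complex, had 4, SIN3B had 3, and HDAC3, MBD3 and NCOR1 were among those with 2. The median window was 199 kb for the CoREST and LSD1 list, 106 kb for the SNAG list and 160 kb for the deacetylase list. Over all protein-coding genes it was 127 kb. In the windows of equal length around the TSS the counts were 4 of 10, 4 of 8 and 5 of 12, set beside 36.6% of all protein-coding genes. GFI1B had more peaks than each of the 9 deacetylase complex genes with a peak, and fewer than GSE1, RREB1 and SCRT2.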

How the data were processed

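CUT&Tag libraries of NB4 cells were made by the authors with an LDB1 antibody and with IgG, 1 each. Per the study's methods and the submitters' processing notes, reads were aligned to hg38 with Bowtie2 2.4.4 and peaks were called from paired-end fragments with MACS3 3.0. Use of the IgG library as control, and removal of duplicates or problem regions, are not given in the sources used here. The deposited columns hold peak start, end and length in base pairs, with no score, q-value or summit, and the start was read as counted from 1.

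Peaks were intersected with GENCODE release 44 on hg38, and the midpoint stood in for the summit. The canonical TSS was that of the Ensembl canonical transcript. A place matched on both strands counted once. The counting was tested on simulated data and run with pysam 0.24.0, pandas 2.3.3, numpy 2.4.6, SciPy 1.17.1 and matplotlib 3.10.9 under Python 3.11.15.

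The genes, lists and motifs were chosen with earlier results of these data known. All 9 genes were named, with each peak where there were 5 or fewer (some sequences, positions and list genes are not reported here) and otherwise the longest, nearest, farthest and composite peaks. The other GFI1B peaks were added after their values were seen. Alternatives were other gene windows, merged peaks, the longer peaks, other peak assignments, unique central sequences and other motif settings.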

Additional observations from a re-analysis of the deposited data

How the results depend on the processing

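No paired analysis was possible because each antibody had 1 library. The count of peaks and the share of genes with a peak depended on the gene window by construction. The 18 peaks became 3 in gene bodies alone, 4 with 3 kb on each side, 7 with 10 kb and 28 with 100 kb, and 10 among peaks of at least the median length. The share of the 9 genes with a peak became 22.2% in gene bodies and also with 3 kb, 33.3% with 10 kb and 100% with 100 kb. Over all protein-coding genes the shares under these windows were 16.5%, 19.7%, 25.1% and 58.3%, so at 10 kb or less the listed genes were near the background.

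Peaks at GFI1B numbered 2 in the gene body, 3 with 3 kb and 5 with 10 kb on each side. Counting only peaks nearest to the TSS of the listed gene left 12 peaks, with none at KDM1A, RCOR3 and HMG20B. Merging peaks less than 1 kb apart left 16, and so did leaving out repeated central sequences.

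The GATA share rose to 72.2% over whole peaks, beside 71.4% of all peaks. The composite share fell to 0% in the central 100 bp, beside 5.50% of all peaks. Leaving out the GFI1B peaks, an alternative chosen after seeing the data, gave 58.3% for GATA and 16.7% for the composite, within the intervals of the main values. The other alternatives of these 2 shares, and both of the median length, also stayed within their intervals. The E-box share became 10% among peaks of at least the median length (35.7% of all such peaks) and 72.2% over whole peaks (60.0% of all). The ETS share became 5.56% in the central 100 bp (2.98% of all), and the AP-1 share 22.2% over whole peaks (19.2% of all). With 18 peaks these intervals are wide, so only large differences from all peaks could have been seen.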
